A study of Mus musculus with 9 samples.

Results

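Genes of the melanocyte lineage were followed in hair follicle stem cells of ageing mice. They are 7 in number and were taken by gene symbol from the 37980 rows of the deposited expression table: Tyrp1, Dct, Tyr, Mlana, Kit, Mitf and Sox10, all of which have a row. RNA had been sequenced from keratinocytes sorted from the back and belly skin of male C57BL/6J mice for high CD49f (integrin alpha 6) and surface CD34, a combination that marks the bulge of the follicle. The mice were 3, 19 or 24 months old, untreated as far as the labels say, and each age has 3 libraries. Whether the 3 libraries of an age are separate animals is not in the labels, and a p-value covers the spread of the libraries at hand, part of which may be technical. The sample descriptions also give each library a running number and a short index sequence. The running numbers are consecutive over the 19- and 24-month libraries with a gap to those of 3 months, and some index sequences of 3 months recur at 19 months. Any difference in how the 3-month libraries were prepared or sequenced, on which the labels are silent, cannot be told apart from age.

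Melanocytes of the hair follicle arise from melanocyte stem cells that share the bulge and the hair germ with the keratinocyte stem cells sorted here. SOX10 and MITF are the transcription factors that specify and maintain the lineage, KIT is the receptor through which it receives stem cell factor from keratinocytes, and tyrosinase (Tyr), tyrosinase-related protein 1 (Tyrp1), dopachrome tautomerase (Dct) and the melanosome protein melan-A (Mlana) make and package pigment. MITF binds E-box sequences in the promoters of the pigment enzyme genes, the best known of which is an extended form called the M-box. The cells were sorted as keratinocytes, so each value is a level in a bulk sample in which melanocytes, if present, are a minority, and fewer melanocytes cannot be told apart from less RNA in each.

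The 3 enzyme genes of the tyrosinase family carried the same 10 letters, GTCATGTGCT, upstream of their starts. The stretches are shown because these are the 3 members whose values at 19 and 24 months all lay below those at 3 months. They are RefSeq promoters on GRCm38.p6, printed 5′ to 3′ on the strand of the gene, with GTCATGTGCT in capitals.
Tyrp1: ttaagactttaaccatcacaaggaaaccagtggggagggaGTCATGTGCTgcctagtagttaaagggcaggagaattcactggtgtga
Tyr: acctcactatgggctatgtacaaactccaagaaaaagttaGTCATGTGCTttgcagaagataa
Dct: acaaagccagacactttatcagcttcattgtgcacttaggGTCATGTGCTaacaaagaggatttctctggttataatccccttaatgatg

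The Tyrp1 stretch is chr4:80834125-80834212 on the plus strand, that of Tyr is chr7:87493513-87493575 on the minus strand, and that of Dct is chr14:118052349-118052438 on the minus strand. The first capital lies 48, 23 and 152 bases before the RefSeq start of Tyrp1, Tyr and Dct. RefSeq promoters were matched for 5 of the 7 members, and each window was searched over the 250 bases before the start, on both strands. GTCATGTGCT was found in 3 of these 5 genes and in 39 of all 27025 genes with a promoter, or 0.144%. It contains the shorter E-box CATGTG, which 13.8% of all genes hold, and CATGTG was likewise found in Tyrp1, Tyr and Dct alone of the 5. CATGTG was not particular to these 3 genes. A list of 12 other melanosome proteins had 8 genes with a promoter, of which 7 held CATGTG and 0 held GTCATGTGCT. In 0 of these 12 did all older libraries lie below all 3-month libraries. That pattern held for 4.38% of protein-coding genes above 0 in at least 1 library. The other E-box, CACGTG, was found in 0 of the 5 members and in 6.86% of all genes. The 10 letters are the longest run that the 3 windows share, and so were chosen from these promoters, and a match is a description of the sequence only. No match was found in the windows of Kit and Mitf.

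Values are FPKM, fragments scaled by transcript length and by mapped fragments, and can be compared between genes because of the scaling by length. The depth of the libraries is unknown, so no counting interval can be given for low values. Of the 37980 rows 12915 are listed at 0 in every library, Krt15, a keratin that bulge cells make, among them, so an exact 0 can be a failed estimate and is given as listed at 0. Cd34 lay between 403 and 632 FPKM and Krt14, a basal keratin, between 3235 and 6619 FPKM over the 9 libraries, so defining markers of the sorted cells were present at every age. Tests were limma fits, 1 of all 14275 rows that reached 1 FPKM in 3 or more libraries and 1 of the 11509 protein-coding genes among them. Of 9 tested stem cell markers limma called 0 in the fit of all rows (4 and 2 at an unadjusted p under 0.05 at 19 and 24 against 3 months). In the fit of protein-coding genes, which called 1.56% and 3.84% of genes, 2 rose at 19 months, Nfatc1 and Sox9, and 1 fell at 24 months, Lgr5. Nfatc1, a quiescence factor of the bulge, differed at 19 months (log2 0.78, limma adjusted p = 0.0264 in that fit, 0.162 in the fit of all rows, and 0.128 without 19 months replicate 2, the highest of 4 fits that omit a library and lose the call). Lgr5, another of these markers, differed at 24 months (log2 -1.01, limma adjusted p = 0.00581 among protein-coding genes and 0.0724 in the fit of all rows).

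The members spanned a wide range of levels. Mitf stood at 24.9 ± 3.00 FPKM over the 9 libraries (SD), above 71.5% of 11511 expressed protein-coding genes by mean level. Dct followed at 4.98 ± 1.69 FPKM, above 29.2% of them. At 3 months Dct was followed by Tyrp1, at 1.23 to 3.57 FPKM, and Mlana, at 0.811 to 2.25 FPKM, and these neighbours overlapped. Tyr, at 0.433 to 0.680 FPKM, and Kit, at 0.329 to 0.679 FPKM, overlapped too, and Sox10 was last, at 0.0309 to 0.244 FPKM. At 19 and 24 months Tyrp1 lay at 0.162 to 0.747 FPKM and overlapped Tyr, at 0.253 to 0.332 FPKM, and Kit, at 0.0154 to 0.460 FPKM, while Dct stayed above every other member but Mitf in every library. The defining melanocyte genes Tyr and Sox10 were thus below 1 FPKM in every library, while Mitf was above 20 FPKM. Which cells of the bulk sample made the Mitf RNA was not tested.

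**Figure D1:**
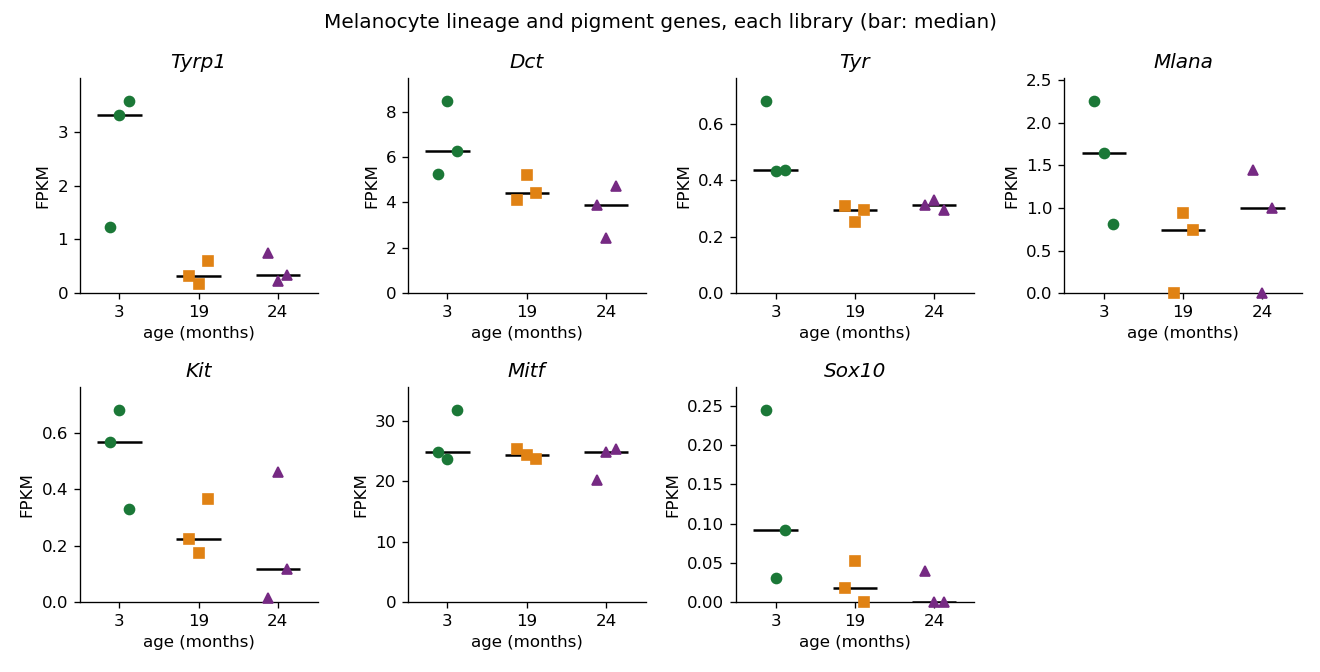
FPKM of the 7 members (y axes, from 0, scaled per gene) by age in months, 1 point per library and a bar at the median of 3 libraries. The 3-month points of Tyrp1, Dct and Tyr lie above every older point, whereas the ages overlap for Mlana, Kit, Mitf and Sox10.

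Tyrp1, which acts late in eumelanin synthesis and stabilises tyrosinase, had the largest log2 difference from 3 months of the 7 members on the log2(FPKM + 1) scale. It stood at 1.23, 3.31 and 3.57 FPKM in the 3-month libraries, at 0.315, 0.162 and 0.594 FPKM at 19 months and at 0.747, 0.227 and 0.333 FPKM at 24 months. Every library of 3 months was above every older library, and replicate 1 was the lowest of them. The mean at 3 months, 2.70 ± 1.28 FPKM (SD, n = 3), was 7.56-fold that at 19 months, 0.357 ± 0.219 FPKM, and 6.20-fold that at 24 months, 0.436 ± 0.275 FPKM. On that scale, where low genes change less than their FPKM, the differences were -1.39 ± 0.29 and -1.31 ± 0.29 (SE of limma). In the fit of all rows they did not pass (limma adjusted p = 0.142 at 19 months and 0.0900 at 24 months). In the fit of protein-coding genes, a choice made with these calls known, Tyrp1 fell at both ages (limma adjusted p = 0.0139 and 0.0131). Leaving out 3 months replicate 2 ended both calls (adjusted p = 0.0730 and 0.0719), and each was also lost without 3 months replicate 3 and without 19 months replicate 2 or 24 months replicate 4, respectively. Tyrp1 passed the filter on low values only through its 3-month libraries, and with no filter the fit of 16802 protein-coding genes did not call it (adjusted p = 0.0970 and 0.0689).

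Dct converts dopachrome to its carboxylated dihydroxyindole and is already made in melanoblasts and melanocyte stem cells. It was the most abundant of the pigment genes among the members at every age. Its 3-month libraries stood at 5.26, 8.46 and 6.25 FPKM, those of 19 months at 4.12, 5.23 and 4.44 FPKM, and those of 24 months at 3.88, 2.41 and 4.73 FPKM. The ages did not overlap with 3 months, although the lowest 3-month value and the highest 19-month value were nearly equal. The log2 differences were -0.44 ± 0.22 at 19 months and -0.72 ± 0.22 at 24 months (SE), and neither passed in the fit of all rows (limma adjusted p = 0.425 and 0.165) or of protein-coding genes (0.334 and 0.0709).

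Tyr, the rate-limiting enzyme of melanin synthesis, was below 1 FPKM in every library and missed the filter. It stood at 0.680, 0.433 and 0.438 FPKM at 3 months, at 0.310, 0.253 and 0.294 FPKM at 19 months and at 0.311, 0.332 and 0.295 FPKM at 24 months. The 6 older libraries lay close together and below all 3 young ones, and the 3-month mean of 0.517 ± 0.141 FPKM (SD, n = 3) was 1.81-fold and 1.65-fold the older means. With no filter on low values the log2 differences, -0.235 ± 0.067 and -0.205 ± 0.067 (SE), did not pass (limma adjusted p = 0.201 and 0.178 among protein-coding genes).

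All libraries of 19 and 24 months were thus below all libraries of 3 months for 3 of the 7 members, Tyrp1, Dct and Tyr. The same held for 4.38% of 16804 protein-coding genes above 0 in at least 1 library. Both older ages were compared with the same 3-month libraries.

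Ratios between the pigment enzymes were compared over the libraries. With 3 against 3 libraries the test used cannot give a p under 0.1, so none could pass 0.05. The ratio of Tyrp1 to Dct was 0.233, 0.391 and 0.571 in the 3-month libraries, 0.0763, 0.0310 and 0.134 at 19 months and 0.192, 0.0941 and 0.0706 at 24 months. The ratio in each young library exceeded that in each older one, with means of 0.398 ± 0.169, 0.0804 ± 0.0516 and 0.119 ± 0.0646 (SD, n = 3 each). The mean log2 ratio differed by -2.45 at 19 and by -1.78 at 24 months (two-sided exact permutation p = 0.1 for both, the smallest that 3 against 3 can give, and 0.45 after Benjamini-Hochberg adjustment over 9 comparisons of ratios). The ratio of Tyr to Dct overlapped between the ages, at 0.0511 to 0.129, 0.0484 to 0.0751 and 0.0625 to 0.138 (exact permutation p = 0.6 and 0.7 against 3 months, adjusted 0.7 for both). The ratio of Tyrp1 to Tyr was 1.80 to 8.15 at 3 months against 0.641 to 2.02 and 0.683 to 2.40 (exact permutation p = 0.2 for both, adjusted 0.45).

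**Figure D2:**
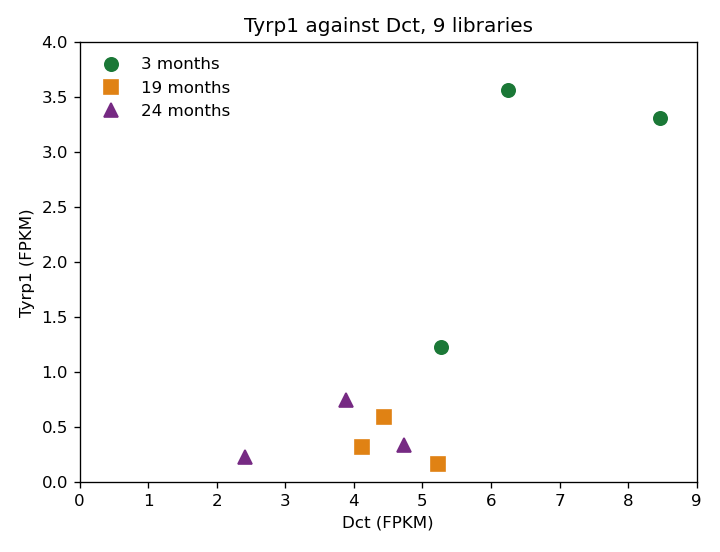
Tyrp1 (y axis, FPKM) against Dct (x axis, FPKM) in the 9 libraries, with the age given by colour and shape. The older libraries lie below 0.75 FPKM of Tyrp1 over a Dct range of 2.41 to 5.23 FPKM, and the 3-month libraries lie above and to the right of them.

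Mlana, a small melanosome membrane protein needed for the maturation of the pigment matrix, was uneven within ages. It stood at 2.25, 1.64 and 0.811 FPKM at 3 months, was listed at 0 in 19 months replicate 1 with 0.938 and 0.744 FPKM in the others, and was listed at 0 in 24 months replicate 3 with 1.44 and 1.001 FPKM in the others. The ages overlapped. With the zeros kept as values the log2 differences were -0.73 ± 0.40 and -0.56 ± 0.40 in the fit of all rows (limma adjusted p = 0.448 and 0.490). With the zeros treated as missing, which drops 1 library at each older age for this gene, they were -0.44 ± 0.27 and -0.18 ± 0.27 (adjusted p = 0.483 and 0.766).

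Kit, the receptor tyrosine kinase of melanoblasts and also of mast cells, missed the filter. Its values were 0.567, 0.679 and 0.329 FPKM at 3 months, 0.224, 0.175 and 0.366 FPKM at 19 months and 0.0154, 0.460 and 0.117 FPKM at 24 months. The highest older library was above the lowest young one, and the 24-month libraries were the most spread. With no filter the log2 differences of -0.28 ± 0.14 and -0.36 ± 0.14 did not pass (limma adjusted p = 0.450 and 0.238 among protein-coding genes).

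Mitf and Sox10, the transcription factors, differed in level by orders of magnitude. Mitf stood at 24.9, 23.7 and 31.8 FPKM at 3 months, at 25.3, 24.3 and 23.7 FPKM at 19 months and at 20.3, 24.8 and 25.4 FPKM at 24 months, and the ages overlapped. Its log2 difference was -0.12 at 19 months (95% interval -0.43 to 0.20, limma adjusted p = 0.740 in the fit of all rows) and -0.18 at 24 months (-0.49 to 0.14, adjusted p = 0.524). The intervals show the range of differences that these libraries allow. The table gives 1 value for the gene, so its isoforms, which start from different promoters, were not separated. Sox10 stood at 0.244, 0.0309 and 0.0913 FPKM at 3 months and at 0.0176 and 0.0522 FPKM at 19 months, where replicate 3 was listed at 0. At 24 months it stood at 0.0396 FPKM in replicate 2 and was listed at 0 in replicates 3 and 4. Sox10 was thus at or near 0 in every library, and the ages overlapped.

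**Figure D3:**
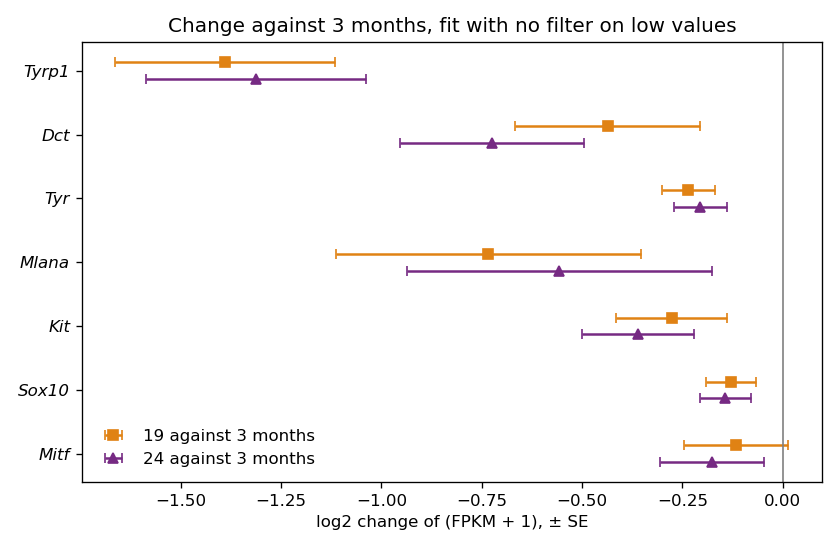
Log2 change of FPKM + 1 at 19 months (squares) and 24 months (triangles) against 3 months for each member (y axis), from the limma fit of protein-coding genes with no filter on low values; bars are ± SE. All points lie below 0, from -1.39 for Tyrp1 at 19 months to -0.12 for Mitf at 19 months, and both ages share the 3-month libraries.

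Over the 4 members that passed the filter, the fit of all rows called 0 at 19 against 3 months, where it called 0.280% of all rows, and 0 at 24 against 3 months, where it called 0.203%. At an unadjusted p under 0.05 limma held 1 and 2 of the 4, against 14.0% and 18.6% of all rows. The fit of protein-coding genes called 1 of 4 lower, Tyrp1, at both ages, against 0.964% and 2.34% of its genes called lower and 1.56% and 3.84% called in either direction. Tyrp1 entered both fits only through its 3-month libraries, so its part in these counts cannot be weighed against the shares. With no filter, so that all 7 members entered, limma called 0 of 7 at both ages, against 0.315% and 0.702% of 16802 protein-coding genes, and held 2 and 5 of 7 at an unadjusted p under 0.05, against 2184 and 2853 of the 16802 genes. In that fit all 7 log2 differences were below 0 at both ages, with medians of -0.28 and -0.36, where 50.8% of all genes were below 0 at 19 months and about as many at 24 months. The signs are not independent, because the members share libraries.

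Between 24 and 19 months the members did not separate. The values of all 7 overlapped. Every 24-month library was below every 19-month library in 9.44% of the 14275 tested rows, which leave out Tyr, Kit and Sox10. This held for 0 of 7 members, which is near that share. The share in the other direction was not counted. Limma called 0 of 4 in the fit of all rows and in that of protein-coding genes, which called 0.0490% and 0.930% of their rows. With no filter it called 0 of 7 among protein-coding genes, where it called 0% of genes. In these 3 fits 0 members had an unadjusted p under 0.05. The log2 differences of Tyrp1 and Dct were 0.08 ± 0.29 and -0.29 ± 0.22 (SE, limma adjusted p = 0.952 and 0.694 in the fit of all rows).

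Other genes of the pathway were read from 4 lists: further melanosome proteins, lineage factors and receptors, signals from the niche, and the machinery of melanosome biogenesis and transport. In the fit of all rows limma called 0 genes of these lists at every comparison. At an unadjusted p under 0.05 it held 1, 4, 3 and 5 of their 5, 10, 8 and 26 tested genes at 19 against 3 months, and 0, 4, 3 and 3 at 24 against 3 months, where all rows gave 14.0% and 18.6%.

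Kitl, stem cell factor, the ligand of KIT, was the 1 niche signal of 8 tested that fell at 24 months in the fit of protein-coding genes. At 24 against 3 months that fit called 2.34% of its genes lower and 3.84% in either direction. Kitl stood at 11.99, 16.78 and 12.45 FPKM at 3 months, at 7.83, 9.97 and 7.04 FPKM at 19 months and at 6.18, 6.96 and 5.32 FPKM at 24 months. No 2 ages of Kitl overlapped, a share not counted over all genes. The same held for other genes of the lists read here. Hps1, of the melanosome biogenesis list, stood at 4.625 to 5.668, 4.335 to 4.434 and 2.545 to 3.777 FPKM at the 3 ages. Gpnmb, a melanosome protein, also separated at all ages but was highest at 24 months. Every older library was below every 3-month library in 4.38% of protein-coding genes above 0 in at least 1 library. The log2 differences of Kitl against 3 months were -0.67 ± 0.18 and -1.04 ± 0.18 (SE). Their limma adjusted p was 0.0779 and 0.00628 in the fit of protein-coding genes, and 0.184 and 0.0589 in the fit of all rows. The call at 24 months was kept in the fit of protein-coding genes whichever of the 9 libraries was left out (highest adjusted p = 0.0408, without 3 months replicate 2). The difference between 24 and 19 months, -0.37 ± 0.18, did not pass (adjusted p = 0.411). Edn3, another melanocyte growth factor, was listed at 0 in every library, and its receptor gene Ednrb lay between 0.0665 and 0.512 FPKM. The median log2 difference of the 8 tested niche genes was -0.167 and -0.195 at 19 and 24 months, against 0.006 and -0.004 over all genes of the fit of protein-coding genes.

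Among 10 tested lineage factors, 1 fell and 1 rose at 19 months and 1 fell at 24 months in the fit of protein-coding genes, which called 1.56% and 3.84% of all genes in either direction. Lef1, a WNT effector that binds the Mitf promoter region in melanocytes, fell at 19 months, from 6.79, 6.76 and 6.83 FPKM to 4.15, 1.43 and 2.49 FPKM (log2 -1.15 ± 0.24, limma adjusted p = 0.0264, and 0.164 in the fit of all rows). Sox5, a modulator of SOX10 in the lineage, fell at 24 months, from 3.79, 5.13 and 4.34 FPKM to 2.58, 0.747 and 0.974 FPKM (log2 -1.22 ± 0.30, limma adjusted p = 0.0377, and 0.158 in the fit of all rows). These calls were lost in 5 leave-one-out fits each (highest adjusted p = 0.111 for Lef1 without 19 months replicate 2, and 0.146 for Sox5 without 24 months replicate 4). Sox9, which rose at 19 months (log2 0.66 ± 0.15, adjusted p = 0.0348, and 0.150 without 3 months replicate 1, the highest of 4 such losses), is also a factor of the bulge keratinocytes, where it was abundant at 102 to 193 FPKM. Of the 16 lineage genes 14 were above 0 in at least 1 library. In 4 of the 14, Sox5, Lef1, Bcl2 and Zeb2, every older library was below every 3-month library. The same held for 4.38% of protein-coding genes above 0 in at least 1 library. Zeb2, a transcription factor of the lineage, stood at 0.236 to 0.347 FPKM at 3 months and 0.0265 to 0.194 FPKM later, below the filter. Bcl2, a survival factor of melanocyte stem cells, stood at 4.33 to 4.85 FPKM at 3 months and 2.31 to 3.40 FPKM later. Bcl2 did not pass (limma adjusted p = 0.0989 and 0.121 among protein-coding genes). Both Lef1 and Bcl2 are also expressed in keratinocytes, and the source cells were not separated.

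**Figure D4:**
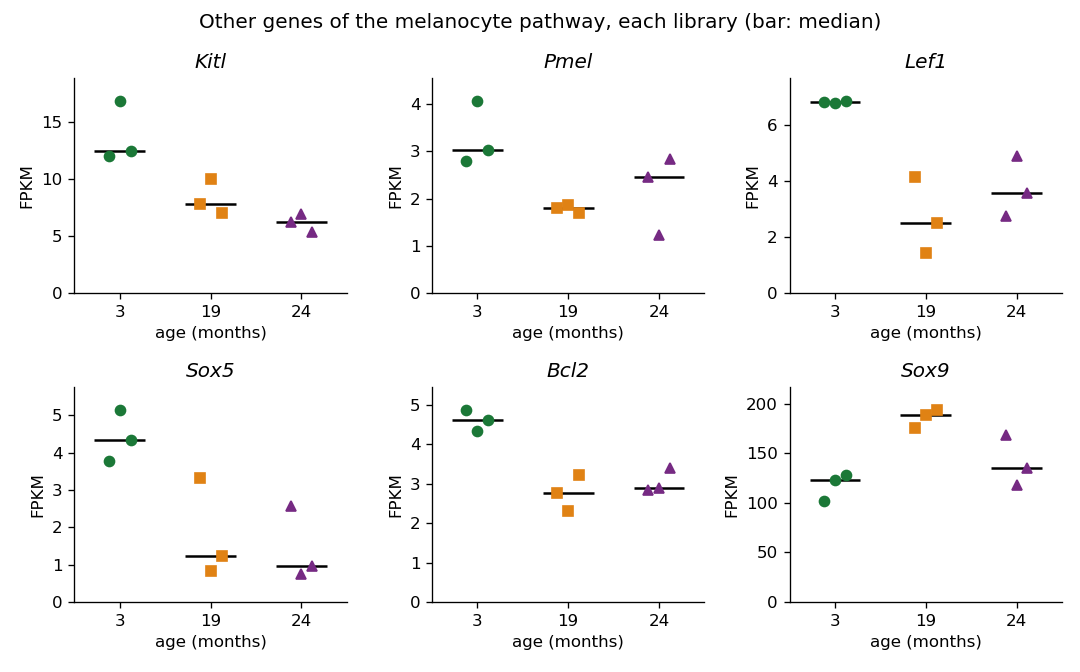
FPKM (y axes, from 0, scaled per gene) of 6 other genes of the pathway by age in months, 1 point per library and a bar at the median of 3 libraries. Kitl steps down at each age without overlap, from 11.99 to 16.78 FPKM at 3 months to 5.32 to 6.96 FPKM at 24 months, while the 24-month libraries of Pmel reach back into the 3-month range.

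Pmel, the amyloid scaffold protein of the melanosome, is 1 of 12 further melanosome proteins, 5 of which were tested. Their median log2 difference was -0.272 at 19 months, with 4 of 5 below 0, and 0.145 at 24 months, with 3 of 5 above 0. It stood at 2.79, 4.06 and 3.03 FPKM at 3 months, at 1.79, 1.87 and 1.70 FPKM at 19 months and at 2.46, 1.22 and 2.85 FPKM at 24 months. Its log2 differences of -0.61 ± 0.21 and -0.46 ± 0.21 did not pass (limma adjusted p = 0.167 and 0.225 among protein-coding genes). Gpnmb, a relative of Pmel also made by macrophages and named after its values were seen, had a mean of 3.91 FPKM at 3, 2.86 at 19 and 4.50 FPKM at 24 months. Of the rest, Gpr143 was listed at 0 in every library, Oca2 was listed at 0 in 7 of 9, and Rab38, a small GTPase that carries cargo to melanosomes and is also made in keratinocytes, lay between 38.5 and 51.4 FPKM. The 26 tested genes of melanosome biogenesis and transport, most of which act in lysosome-related organelles of many cell types, had median log2 differences of -0.04 and -0.10, and 0 were called in the fit of protein-coding genes (3 and 6 at an unadjusted p under 0.05, against 15.7% and 21.6% of all its genes).

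Markers of other cell types were read beside these values. Kit is shared with mast cells, and of 10 other mast cell markers 8 were listed at 0 in every library, among them the protease genes Cpa3, Tpsb2, Mcpt4 and Cma1. The sum of the 10 was 1.23 to 2.04 FPKM at 3 months, 0.204 to 0.936 FPKM at 19 months and 0.681 to 1.13 FPKM at 24 months, most of it Hdc. Sox10 is shared with Schwann cells, of which 10 of 11 other markers were above 0 in at least 1 library. Their sum was 73.5 to 85.3, 97.0 to 104.6 and 85.9 to 102.6 FPKM at the 3 ages, mostly from Pmp22, which is also made in epithelia, with Erbb3, Egr2 and Ngfr next. Of 7 tested Schwann markers limma called 0 in the fit of all rows (1 and 2 at an unadjusted p under 0.05 at 19 and 24 against 3 months; Pmp22 adjusted p = 0.177 and 0.130). Pmp22 rose at both ages in the fit of protein-coding genes, which called 1.56% and 3.84% of genes (limma adjusted p = 0.0433 and 0.0361, with the call lost in 7 and in 5 of the 9 fits that omit a library, the highest p being 0.177 without 19 months replicate 3 and 0.102 without 24 months replicate 2). Foxd3, another marker of the list, was listed at 0 throughout. Markers of the growing hair matrix and shaft, where melanocytes are active, summed to 40.8 to 48.1, 34.4 to 45.0 and 28.1 to 36.2 FPKM over 11 genes, with 0 of 7 tested genes called by limma in the fit of all rows (1 and 2 at an unadjusted p under 0.05 at 19 and 24 against 3 months). Macrophage and Langerhans markers summed to 59.3 to 91.1, 62.3 to 88.7 and 66.8 to 99.9 FPKM, and fibroblast markers to 6.90 to 9.81, 10.3 to 12.6 and 10.3 to 17.8 FPKM. Epcam, at 24.2 to 52.2 FPKM, and Cd74, at 17.6 to 53.7 FPKM, made up most of the former. Cd68 lay between 3.92 and 9.06 FPKM, while Ptprc, Csf1r and Adgre1 peaked at 0.620, 0.3105 and 0.3123 FPKM. The fibroblast sum was mostly Col1a2, at 4.465 to 10.68 FPKM, while Pdgfra peaked at 0.3875 FPKM. The part of these cell types in the values of the members was not tested.

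Across the 9 libraries the log2 values of Tyrp1 and Dct had a Pearson correlation of 0.75, those of Dct and Mlana 0.64, and those of Tyrp1 and Mlana 0.47. Mitf correlated with Tyrp1, Dct and Mlana at 0.41, 0.26 and -0.23. These describe 9 libraries in 3 ages and include the difference between ages. Of all 14275 rows those most like Tyrp1 were Myst3, a histone acetyltransferase (0.955), Gm13178 (0.948), St14, the membrane protease matriptase (0.943), Scd3, a fatty acid desaturase (0.943), and St3gal2, a sialyltransferase (0.940). Gm13178 was listed at 0 in 5 of the 9 libraries. Like Tyrp1, Gm13178 and Scd3 passed the filter on low values only through their 3-month libraries. Scd3 had means of 2.40 ± 1.06, 0.322 ± 0.176 and 0.550 ± 0.194 FPKM (SD, n = 3 each), close to those of Tyrp1. The rows most like Mitf, the most abundant member, were Ppp2r5e (0.949), Polm (0.946), Zfp292 (0.946), Klhl12 (0.937) and Kdm5d (0.934). These are the highest of many correlations, and none of the 10 is a pigment gene of the lists read here.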

How the data were processed

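The table was deposited by the authors as FPKM, 1 column per library. The submitters' processing notes list TopHat, Cuffdiff and NCBIM37 as tools and build. Their versions, settings, strand use and scaling between libraries were not given in the sources used here. Columns were matched to libraries through the sample descriptions. Gene types came from GENCODE M21 by Ensembl identifier (32916 of 37980 rows matched), used for types only, since it is on another build.

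Tests were made with limma 3.58.1 (R 4.3.3), using a prior variance that follows mean level, on log2(FPKM + 1), all 9 libraries in 1 model, two-sided, with Benjamini-Hochberg adjustment over all rows tested and a threshold of 0.05. Rows needed at least 1 FPKM in at least 3 libraries. The fit of protein-coding genes leaves out other gene types and rows listed at 0 in every library of an age but at least 5 FPKM in every library of another. The code was tested on simulated data.

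The members, lists and both fits were chosen with earlier results of these data known. Named genes are the 7 members, listed pathway genes called in either fit, Pmel, Kitl, Ednrb, Edn3, Cpa3, Cd34, Krt14, marker genes called in either fit, and the 5 rows most correlated with Tyrp1 and with Kit, replaced by Mitf because Kit missed the filter. Some genes that the rule names are not reported here. Other genes were named after their values were seen. Alternatives were other row sets, filters, pseudocounts, priors, scalings, a replicate block and leaving out each library; treating exact zeros as missing and the protein-coding fit with no filter were added after seeing the data.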

Additional observations from a re-analysis of the deposited data

How the results depend on the processing

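The fit of all rows called 40, 29 and 7 rows at 19 against 3, 24 against 3 and 24 against 19 months, and a separate F test over the 3 ages called 32, given last in each set that follows. The fit of protein-coding genes called 180, 442, 107 and 523, and a robust prior 72, 224, 27 and 152. Leaving out rows listed at 0 gave 27, 0, 0 and 0. No filter gave 22, 8, 6 and 17. Scaling to the protein-coding median gave 13 at 24 against 3 months. With exact zeros as missing, added after seeing the data, the last 3 counts were 221, 28 and 162. Leaving out 1 library gave 9 to 37, 7 to 39, 7 to 22 and 14 to 33 in the fit of all rows, and 69 to 230, 136 to 456, 20 to 216 and 190 to 541 among protein-coding genes. The causes were not tested.

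The labels number the libraries 1 to 3 at 3 and 19 months and 2 to 4 at 24 months. Deviations of same-numbered libraries correlated at between -0.197 and 0.187, with 3 of 7 pairs below 0, and those of other pairs at between -0.230 and 0.164. With 3 libraries per age these values cannot show whether same-numbered libraries share more than a number, and the labels do not say. With the replicate block the fit of all rows called 9, 13, 16 and 19, and that of protein-coding genes 253, 158, 110 and 352. Dct at 24 against 3 months passed only with the replicate block among protein-coding genes (log2 -0.985, limma adjusted p = 0.0377).

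For the 4 tested members, 327 of 360 alternative values kept the sign and the side of the threshold, and 19 crossed it: 8 of Tyrp1 at 19 months, 10 of Tyrp1 at 24 months and the 1 of Dct. Outside the fits of protein-coding genes Tyrp1 at 24 months passed with a robust prior (limma adjusted p = 0.0467) and with exact zeros as missing (0.0461). Both of these fits kept the filter on low values, which Tyrp1 passed only through its 3-month libraries. With no filter the fit of all gene types did not call it at 24 months (limma adjusted p = 0.141). In 14 of the 360 alternative values the sign changed, each time of a small difference. For Tyrp1 at 24 against 19 months it was -0.052 with the replicate block in both fits, and -0.073 to 0.199 when 1 library was left out. Leaving out 1 library gave Mlana -0.115 to 0.559 at 24 against 19 months, and Mitf -0.194 to 0.009 at 19 against 3 months and -0.119 to 0.037 at 24 against 19 months. The value above 0 for Mitf at 19 months came without 3 months replicate 3. A pseudocount of 0.1 gave Tyrp1 differences of -2.59 and -2.37 against 3 months, with adjusted p = 0.166 and 0.113. With the depth unknown, values below 1 FPKM, which include every value of Tyr, Kit and Sox10, have no known counting error.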
